A study of Mus musculus with 4 samples.

Results

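The BTB zinc finger genes on the mouse autosomes were examined for DNA captured with MBD2, a protein that binds methylated CpG. Members were the protein-coding genes of chromosomes 1 to 19 whose RefSeq symbol is Zbtb followed by a number, leaving out Zbtb4 and Zbtb38. The rule gave 38 genes out of 20665 protein-coding genes on those chromosomes. Regions were counted for a gene when they overlapped its body or the 2000 bp on either side, and 62 of the 39231 regions of the deposited list did so. The rule uses symbols and positions only, not a measured value. It also takes in Zbtb8os, named for its place beside Zbtb8a, which encodes the tRNA ligase cofactor archease and not a BTB zinc finger protein.

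BTB zinc finger proteins carry a BTB (POZ) domain at the amino terminus and C2H2 zinc fingers toward the carboxyl terminus. The BTB domain lets them pair with each other and recruits corepressors with histone deacetylases or the ubiquitin ligase scaffold cullin 3, while the fingers bind DNA. Many act as repressors that fix a cell's lineage, above all in lymphocytes, and some family members read methylated DNA. Zbtb18 is known in muscle for repressing the Id genes during differentiation, and Zbtb42 is present in skeletal muscle.

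The cells were satellite cells, the stem cells of skeletal muscle, taken from hindlimb muscles of mice aged 9 weeks and kept in culture for 3 days. Tamoxifen was injected to switch on Cre and remove Uhrf1, a protein needed to copy DNA methylation onto new DNA strands, and oil served as the control. The treatment was 150 µl of a 20 mg/ml solution on 5 days. The driver of the Cre, the floxed interval and the genotype of the oil mice are not given in the sources used here. The study has 4 libraries in 4 groups of 1, from the methylated and the non-methylated DNA part of either treatment, and the oil against tamoxifen comparison used 2 libraries. With no replicates, no test between treatments was made, and the deletion cannot be told apart from tamoxifen, animal, culture or capture. The limits given with folds below cover counting error only, and no interval covers differences between animals. The data hold no expression values, so the cell type could not be checked against markers.

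The list holds only regions with more oil than scaled tamoxifen tags, because the peak caller was given oil as treatment and tamoxifen as control. The alignments are read here as the captured, methylated part, which the list's header does not state. A tag is a sequenced read extended to 201 bp, and tag numbers are those over a region's summit, the point where oil was highest. The oil library had 19534328 tags after duplicates were removed and the tamoxifen library 25614791, so tamoxifen tags count 0.763 each when the libraries are scaled to the same size. The redundant rate before that step was 0.45 in oil and 0.30 in tamoxifen, and its part in the results was not tested. The fold is the authors' value, the oil tags plus 1 over the scaled tamoxifen tags plus 1, and the limits beside it (95%, exact by Clopper-Pearson) are those of the scaled tag ratio with nothing added. Choosing the summit and passing the caller's q limit of 1e-04 both raise folds. A gene without a region may have been unmethylated, unchanged, higher in tamoxifen or thinly covered. Coordinates are GRCm38 (mm10).

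Regions lay in 24 of the 38 members (63.2%), beside 47.1% of all 20665 protein-coding genes. Among genes with a body under 20 kb, 10 of 19 members (52.6%) carried a region, against 28.3% of all such genes. From 20 to 100 kb it was 10 of 15 members (66.7%) against 63%, close to the background, and over 100 kb all 4 members (Zbtb7c, Zbtb16, Zbtb20 and Zbtb46) against 87.5%. The gap to the background was widest among the short genes, and these shares were not tested. Members with a region had a median length of 21.2 kb and those without one 12.1 kb. Each of the 62 regions belonged to 1 member only, although several members lie side by side in the genome.

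**Figure D1:**
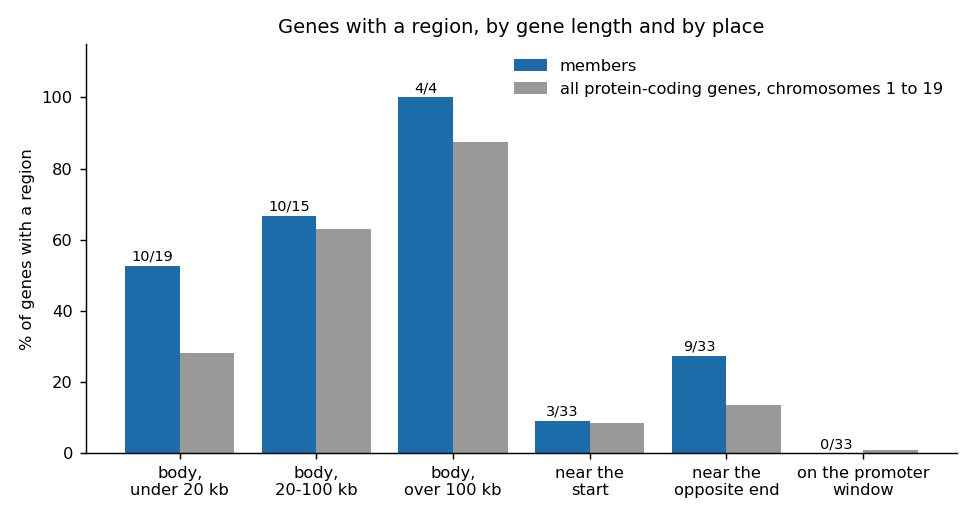
Percent of genes with a region (vertical axis) for BTB zinc finger genes (blue, with the number of genes above each bar) and all protein-coding genes of chromosomes 1 to 19 (grey), by length of the gene body and by place in the gene. The gap between blue and grey bars is widest for genes under 20 kb (52.6% against 28.3%) and next at the end opposite the start (27.3% against 13.7%), and no member had a region on its promoter window.

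The 14 members without a region were Zbtb3, Zbtb6, Zbtb8os, Zbtb9, Zbtb11, Zbtb12, Zbtb18, Zbtb25, Zbtb26, Zbtb32, Zbtb41, Zbtb42, Zbtb44 and Zbtb49. The longest of them was Zbtb44, at 46.2 kb. Zbtb18 and Zbtb42, the members named above for muscle, were in this group, at 8.41 kb and 4.1 kb. Of all genes under 20 kb 28.3% carried a region, so most genes of such length had none. Zbtb32, a repressor of lymphocyte activation also called PLZP, was in the group too.

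The promoters of the members were rich in CpG, the dinucleotide that carries methylation in mammals. RefSeq promoter windows of 300 bases, from 250 before to 50 after the start (GRCm38.p6), were matched by gene ID for 33 members. Those of Zbtb7c, Zbtb10, Zbtb16, Zbtb40 and Zbtb48 were not matched. With the farthest upstream window of each gene, the members held a median of 26 CpG (quartiles 18 and 36), against 14 (4 and 25) over 16457 protein-coding genes. At least 10 CpG were found in 29 of 33 members (87.9%) and in 58.6% of all genes. CpG reads the same on both strands, and 95% of all windows held 1 or more.

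No region overlapped any of these members' promoter windows, beside 0.863% of the 16457 genes with one. Within 2000 bp of a listed start, regions were found at 3 of 33 members (9.09%), beside 8.6% of all genes. These were Zbtb22, Zbtb24 and Zbtb45. Their windows are printed with those of Zbtb46 and Zbtb18, the members with fewest and most CpG, to show what range of sequence the starts without a region cover. CpG is in capitals, and each is written 5′ to 3′ on the gene's strand.
Zbtb46, chr2:181424339-181424638, minus strand, 1 CpG: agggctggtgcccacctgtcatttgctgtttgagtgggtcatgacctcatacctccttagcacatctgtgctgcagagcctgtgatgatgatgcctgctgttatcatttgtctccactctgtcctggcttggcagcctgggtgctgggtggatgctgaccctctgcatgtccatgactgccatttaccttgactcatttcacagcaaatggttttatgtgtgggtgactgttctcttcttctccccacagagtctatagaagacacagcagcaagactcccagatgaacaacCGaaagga
Zbtb24, chr10:41450108-41450407, plus strand, 18 CpG: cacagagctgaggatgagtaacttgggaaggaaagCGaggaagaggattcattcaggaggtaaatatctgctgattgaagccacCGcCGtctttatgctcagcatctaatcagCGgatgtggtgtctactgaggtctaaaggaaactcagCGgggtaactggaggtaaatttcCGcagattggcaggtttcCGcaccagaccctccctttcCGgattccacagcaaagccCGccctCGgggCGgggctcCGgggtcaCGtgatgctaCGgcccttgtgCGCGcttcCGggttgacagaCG
Zbtb22, chr17:33915926-33916225, plus strand, 22 CpG: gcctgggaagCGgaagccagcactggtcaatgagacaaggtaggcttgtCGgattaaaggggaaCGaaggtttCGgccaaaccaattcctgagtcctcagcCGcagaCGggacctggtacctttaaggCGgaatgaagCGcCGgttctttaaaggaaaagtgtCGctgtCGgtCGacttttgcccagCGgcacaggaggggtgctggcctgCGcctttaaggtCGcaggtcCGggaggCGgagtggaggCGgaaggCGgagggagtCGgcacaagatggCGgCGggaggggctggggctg
Zbtb45, chr7:13009803-13010102, minus strand, 24 CpG: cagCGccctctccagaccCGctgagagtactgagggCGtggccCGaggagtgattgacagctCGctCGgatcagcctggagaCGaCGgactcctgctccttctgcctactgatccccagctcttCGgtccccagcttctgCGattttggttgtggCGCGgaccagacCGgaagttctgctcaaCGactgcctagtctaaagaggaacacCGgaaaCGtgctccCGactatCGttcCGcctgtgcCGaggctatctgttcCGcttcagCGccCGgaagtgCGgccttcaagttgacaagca
Zbtb18, chr1:177442101-177442400, plus strand, 51 CpG: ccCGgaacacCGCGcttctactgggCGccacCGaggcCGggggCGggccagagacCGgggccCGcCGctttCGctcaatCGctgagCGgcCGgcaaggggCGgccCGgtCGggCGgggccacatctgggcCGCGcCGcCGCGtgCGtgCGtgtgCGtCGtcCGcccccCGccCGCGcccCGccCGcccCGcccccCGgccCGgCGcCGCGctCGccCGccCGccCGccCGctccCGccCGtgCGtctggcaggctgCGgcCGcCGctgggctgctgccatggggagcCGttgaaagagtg
The capitals fill much of the Zbtb18 window and are all but missing from that of Zbtb46, and neither gene had a region within 2000 bp of a start. The listed start of Zbtb46 lies 68.9 kb inside the gene body and that of Zbtb20, next lowest with 3 CpG, lies 372 kb inside. Neither window therefore stands at the outer end of its gene. Over all genes, a region lay within 2000 bp of a start for 9.64% of those with 10 or more CpG in the window and for 7.12% of those with fewer, and on the window itself for 0.715% and 1.07%.

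At the 62 regions of the members the scaled tamoxifen signal was a median of 20.9% of the oil signal, beside 20.1% in the whole list. The oil tags ranged from 20 to 234 with a median of 48, and the tamoxifen tags from 3 to 109 with a median of 12.5. The median fold was 4.35 (quartiles 3.61 and 5.32), against 4.71 (3.77 and 5.99) over the 24224 regions of all protein-coding genes on these chromosomes and 4.61 in the whole list. A fold of 4 or more was found in 33 regions of the members (53.2%), beside 68.9% of the regions of all these genes. The members' median and both quartiles were a little below those of all such genes. The interval of the members' median over the 62 regions was 3.82 to 4.99. Regions in the same gene, such as the 12 of Zbtb7c, are not independent, so no conclusion is drawn from that interval. The difference of the members from all such genes and from the whole list was not tested. At 8-fold or more were 4 regions (6.45% beside 7.36%), at Zbtb1, Zbtb7c, Zbtb34 and Zbtb45. Under 3-fold were 7 regions (11.3% beside 8.44%). The regions were from 201 to 1181 bp long with a median of 259 bp, the same median as in the whole list.

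**Figure D2:**
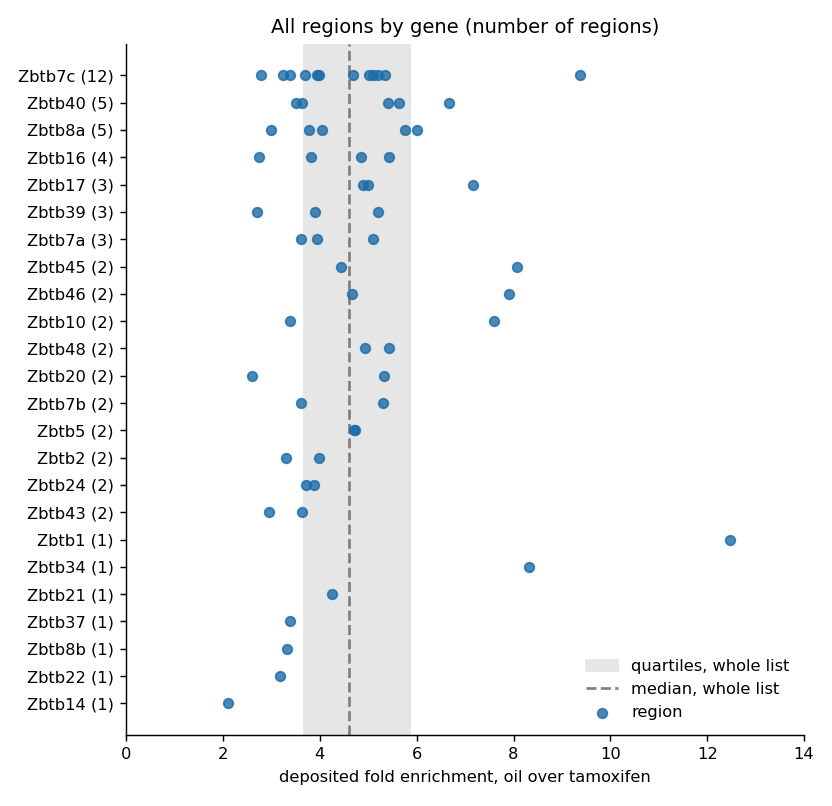
Deposited fold of oil over tamoxifen (horizontal axis) for each of the 62 regions, in rows by gene with the number of regions in brackets, with the median of the whole list (4.61, dashed) and its quartiles (3.67 and 5.87, grey). Zbtb1 stands at 12.47 and Zbtb14 at 2.11, and the 12 regions of Zbtb7c spread from 2.79 to 9.37.

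Among 7 factors of lymphoid and myeloid lineages, 6 carried a region, 15 regions in all with a median fold of 4.89. The share in all protein-coding genes was 47.1%, and 63% in those of 20 to 100 kb, where the group's median length of 23.3 kb falls, and nothing is read from a count of 7. Zbtb1, needed for lymphocyte development, had the strongest region of the family. At chr12:76373344-76373655, inside the gene and 2954 bp from its listed start, 59 oil tags stood against 5 tamoxifen tags, a fold of 12.47 (limits 6.27 to 49.4) that exceeded 99.5% of all regions. Its divergent neighbour Zbtb25, whose listed start lies less than 1 kb away, had none. Zbtb46, a marker of classical dendritic cells, had a region at chr2:181391160-181391498 with 31 against 4 tags (7.90-fold, limits 3.59 to 39.6) and another, from 181414414, with 25 against 6 tags (4.66-fold). Both lie in the body of a long gene, the second 9805 bp from the listed start.

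Zbtb17 encodes Miz1, a partner of Myc that is also required in early B and T cells. Its strongest region, chr4:141457477-141457868, had 28 against 4 tags (7.16-fold, limits 3.21 to 36). A second from 141463657 had 30 against 7 tags (4.89-fold). The third, from 141469620 with 23 against 5 tags (4.99-fold), lies 1683 bp beyond the gene and within the neighbouring gene Spen. Few tags stood behind each of the 3, so their limits are wide and overlap.

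Zbtb7a and Zbtb7b are close relatives with different lineage roles. Zbtb7a (LRF) acts in B cell fate and in silencing fetal globin, and its 3 regions were all within 2000 bp of the end opposite its start. At chr10:81151569-81151779 there were 39 against 9 tags (5.09-fold, limits 2.71 to 13.3), and from 81150532 there were 36 against 11 (3.94-fold). The best covered, from 81153829, had 151 against 54 tags (3.60-fold, limits 2.67 to 5.10) and lies 1607 bp past the gene, within Pias4. Zbtb7b (ThPOK), the factor that commits thymocytes to the CD4 lineage, had a region at chr3:89379626-89379949 with 73 against 17 tags (5.30-fold, limits 3.29 to 10.2), near the end opposite its start. The second, from 89380795, had 66 against 23 tags (3.61-fold). The limits of the 2 relatives' strongest regions overlap.

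Zbtb16 encodes PLZF, which directs natural killer T cells and maintains spermatogonial stem cells. Its 4 regions lay inside its 184 kb body. At chr9:48688444-48688677 there were 54 against 12 tags (5.42-fold, limits 3.12 to 12.1). A pair less than 1 kb apart followed, from 48803499 with 29 against 9 tags (3.82-fold) and from 48803859 with 63 against 16 (4.85-fold). The weakest, from 48665198, had 29 against 13 tags (2.75-fold, limits 1.47 to 6.13) and exceeded 6.37% of all regions. With tamoxifen tags left unscaled it did not reach the weakest p-value of the list, the limit used below for unscaled tags.

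**Figure D3:**
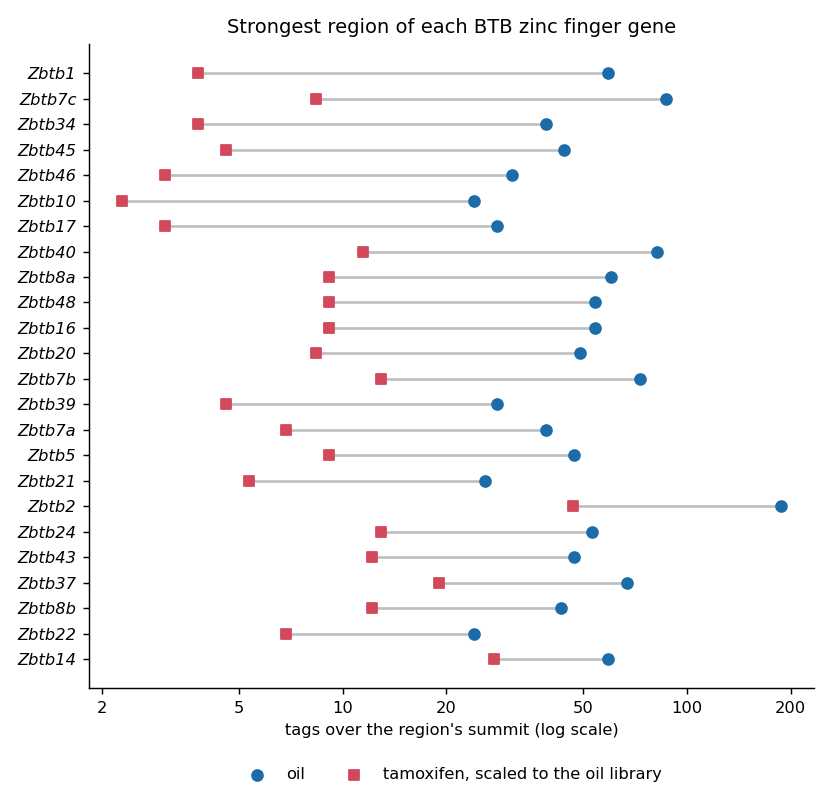
Tags over the summit of the strongest region of each of the 24 members with a region, on a log axis, for oil (blue circles) and for tamoxifen after scaling to the oil library (red squares). Oil was higher in all 24 because the list holds only such regions. The gap is widest at Zbtb1 (59 against 5 unscaled tags) and narrowest at Zbtb14 (59 against 36), which had the same number of oil tags. Both were picked as extremes, so no difference is read from them.

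Of 5 repressors known from development, 3 carried regions (60%), beside 47.1% of all genes. The group's median length was 7.58 kb, and 28.3% of all genes under 20 kb carried a region. Nothing is read from a count of 5. Zbtb20, which acts in the hippocampus and in silencing fetal genes of the liver, is the longest member at 759 kb but had only 2 regions, or 0.262 per 100 kb. The median over the 533 genes of 300 kb or more was 0.677 per 100 kb, and 19.5% of them were lower than Zbtb20. The region at chr16:43122030-43122257 had 49 against 11 tags (5.33-fold, limits 3.00 to 12.5). The other, from 43609927, had the same 49 oil tags but 24 tamoxifen tags (2.59-fold, limits 1.61 to 4.56) and did not pass the limit with unscaled tags.

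Zbtb45, a gene of 4.38 kb, carried 2 regions. At chr7:13006435-13006709, near the end opposite the start, 44 oil tags stood against 6 tamoxifen tags (8.07-fold, limits 4.08 to 27.6). That region exceeded 93.5% of the list. The second, from 13007675, had 61 against 17 tags (4.44-fold), and its edge falls within 2000 bp of the listed start. Zbtb14, also called ZF5 and described as a repressor of Myc, had the weakest region of the family, chr17:69388000-69388443. The tags were 59 against 36 (2.11-fold, limits 1.40 to 3.35), keeping 46.5% of the oil signal. With unscaled tags it was 1.62-fold and not past the limit. Zbtb1 had the same 59 oil tags and kept 6.46%. The folds of Zbtb1 and Zbtb14 are the highest and lowest of the family. Their limits do not allow for that choice, so no difference is read from them.

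All 5 members grouped under genome and DNA methylation upkeep carried regions, 13 in all with a median fold of 3.98. The grouping is loose, as Zbtb2 and Zbtb10 are described below by other roles and Zbtb40 by none. The group's median length was 21 kb, and 63% of all genes of 20 to 100 kb carried a region, so nothing is read from a count of 5. Zbtb24 is the gene mutated in a form of ICF syndrome, in which DNA methylation is lost at centromeric repeats. Its region near the start, chr10:41451874-41452121, had 68 against 23 tags (3.72-fold, limits 2.39 to 6.52), with its summit 1631 bp inside the gene. The other, from 41466385, had 53 against 17 tags (3.87-fold, limits 2.33 to 7.53) and lies 803 bp beyond the opposite end. The 2 folds were within counting error of each other, and 30.4% of all regions had a lower fold than the higher of them.

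Zbtb48 encodes the telomere binding protein TZAP. It had 34 against 8 tags at chr4:152024488-152024719 (4.93-fold) and 54 against 12 tags (5.42-fold, limits 3.12 to 12.1) from 152028519, 844 bp beyond the gene and within Tas1r1. Zbtb2, described as a repressor of Cdkn1a, had one of the best covered regions, chr10:4365572-4366162, with 188 against 61 tags (3.98-fold, limits 3.01 to 5.49). That number of oil tags exceeded 98.7% of the list, and the region lies 912 bp past the end opposite the start. Its second, from 4377532, had 50 against 19 tags (3.29-fold).

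Zbtb10 (RINZF), which competes with Sp1 at GC-rich sites, had 2 unlike regions less than 2 kb apart. At chr3:9282266-9282542 there were 24 against 3 tags (7.60-fold, limits 3.19 to 54.4), and from 9280781 there were 103 against 39 (3.38-fold, limits 2.37 to 5.14). The limits of the 2 overlap, so their folds were not separated at this depth. Zbtb40 had 5 regions inside its 69.1 kb body. The strongest, chr4:137019238-137019504, had 82 against 15 tags (6.67-fold, limits 4.10 to 13.4). One from 137040898 with the same 82 oil tags had 18 tamoxifen tags (5.64-fold), and one from 136988102 had 95 against 22 (5.40-fold). The remaining regions, from 136995253 with 47 against 16 tags (3.64-fold) and from 136983109 with 32 against 11 (3.51-fold), were weaker.

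Of the other 21 members 10 (47.6%) carried a region, beside 47.1% of all genes, with 29 regions in all and a median fold of 3.99. The group's median length was 21.2 kb. Of all genes, 63% of those of 20 to 100 kb and 28.3% of those under 20 kb carried a region, and nothing is read from this count. Zbtb7c, also called Kr-pok and a relative of Zbtb7a, had 12 of the 29 regions over 328 kb of chromosome 18, most of any member. At 3.61 per 100 kb it was above 93.8% of the 533 genes of 300 kb or more, where Zbtb20 was above 19.5%. Against the 2313 genes of 100 kb or more, whose median was 1.33 per 100 kb, Zbtb7c was above 81.8%. The strongest, chr18:75893478-75893858, had 87 against 11 tags (9.37-fold, limits 5.52 to 21.5) and exceeded 97% of all regions. The broadest region of the family, 1181 bp at chr18:76106159-76107339, had most tags of all members, 234 against 109, with a fold of 2.79 (limits 2.23 to 3.57). The limits of these 2 regions do not overlap. They are the highest and lowest folds of the 12, and the limits do not allow for that choice, so no difference is read from them.

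The other 10 regions of Zbtb7c lay between these folds. From 75946379 there were 37 against 8 tags (5.35-fold), from 75821236 24 against 5 (5.19-fold), from 76066915 39 against 9 (5.09-fold) and from 75879403 27 against 6 (5.02-fold). From 75875439 there were 43 against 11 tags (4.69-fold), from 76035107 79 against 25 (3.99-fold) and from 75905023 39 against 12 (3.94-fold). The lowest were from 75855927 with 132 against 46 tags (3.69-fold), from 76137118 with 90 against 34 (3.38-fold) and from 75973905 with 64 against 25 (3.24-fold). Only the one from 75821236 was within 2000 bp of an end of the gene.

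Zbtb8a had 5 regions, 4 of them close together from 129353202 to 129356247 of chromosome 4 at the end opposite its start. The strongest, chr4:129354203-129354440, had 60 against 12 tags (6.01-fold, limits 3.49 to 13.4). Next to it, from 129355369, were 97 against 21 tags (5.76-fold), and from 129355983 102 against 32 (4.05-fold). These 3 also lie within the gene LOC108168979. The one past the gene, from 129353202, had 20 against 6 tags (3.77-fold), and the remaining one, from 129360144, 34 against 14 (3.00-fold, limits 1.66 to 6.42). These last 2 were not past the limit with unscaled tags. The neighbouring Zbtb8b had a single region, chr4:129432121-129432443, with 43 against 16 tags (3.33-fold), and Zbtb8os on the other side had none.

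Zbtb39 had 3 regions over 7.82 kb. At its end opposite the start, chr10:127747281-127747494, 28 tags stood against 6 (5.20-fold, limits 2.49 to 18.1). From 127743795 there were 80 against 26 (3.89-fold) and from 127742188 70 against 33 (2.71-fold, limits 1.81 to 4.34). Zbtb5, described as a repressor of Cdkn1a, had 2 regions of like fold, chr4:44995479-44995679 with 47 against 12 tags (4.73-fold) and one from 44994204 with 36 against 9 (4.71-fold).

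Zbtb34 and Zbtb43 are neighbouring genes on chromosome 2. The single region of Zbtb34, chr2:33413193-33413442, had 39 against 5 tags (8.31-fold, limits 4.03 to 33.2). Zbtb43 had 2 lower folds, from 33458483 with 47 against 16 tags (3.64-fold, limits 2.14 to 7.28) and from 33453902 with 47 against 20 (2.95-fold). The limits of the strongest regions of the pair overlap.

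Single regions were also found in Zbtb21 (chr16:97950809-97951085, 26 against 7 tags, 4.26-fold), Zbtb37 (chr1:161020108-161020389, 67 against 25 tags, 3.39-fold) and Zbtb22. That of Zbtb22, a gene of 3.15 kb, lies at chr17:33917584-33917932 in the middle of the gene and so within 2000 bp of both ends. It had 24 against 9 tags (3.18-fold, limits 1.57 to 8.55) and was not past the limit with unscaled tags.

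Within the genes, the regions of the members lay mostly past the midpoint of the gene, on the side away from the start. For the 33 members with a strand in the promoter table, 25 of 31 regions with their midpoint inside the body (80.6%) were past it, beside 58.8% of 18514 over all genes with a strand. The last 40% of the body held 20 of the 31, and the first 40% held 4, at Zbtb1, Zbtb20, Zbtb24 and Zbtb39. Over all genes with a strand, in 5 equal bins, the last 2 held 21.5% and 27.7% and the first 2 held 14.9% and 17%. Regions of Zbtb2, Zbtb22 and Zbtb45 were so near the middle that their side is not telling. In 13 of 19 members with such a region (68.4%) every one lay past the midpoint, beside 39.6% of all genes. Under 20 kb the far side held 12 of 14 regions (85.7% against 61.1%), from 20 to 100 kb 10 of 13 (76.9% against 59.3%), and over 100 kb 3 of 4 (75% against 57.4%). The far side of the members held a larger share than that of all genes in each class of length. Over 100 kb this rests on 2 members, Zbtb20 and Zbtb46. Their listed starts lie 372 kb and 68.9 kb inside the body, and sides were counted from the body's outer end. One region of Zbtb46 counted as far lies 9805 bp from its listed start, so nothing is read from that class. This view was chosen after the positions were seen, regions in 1 gene are not independent, and the gene bodies hold predicted transcripts too.

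**Figure D4:**
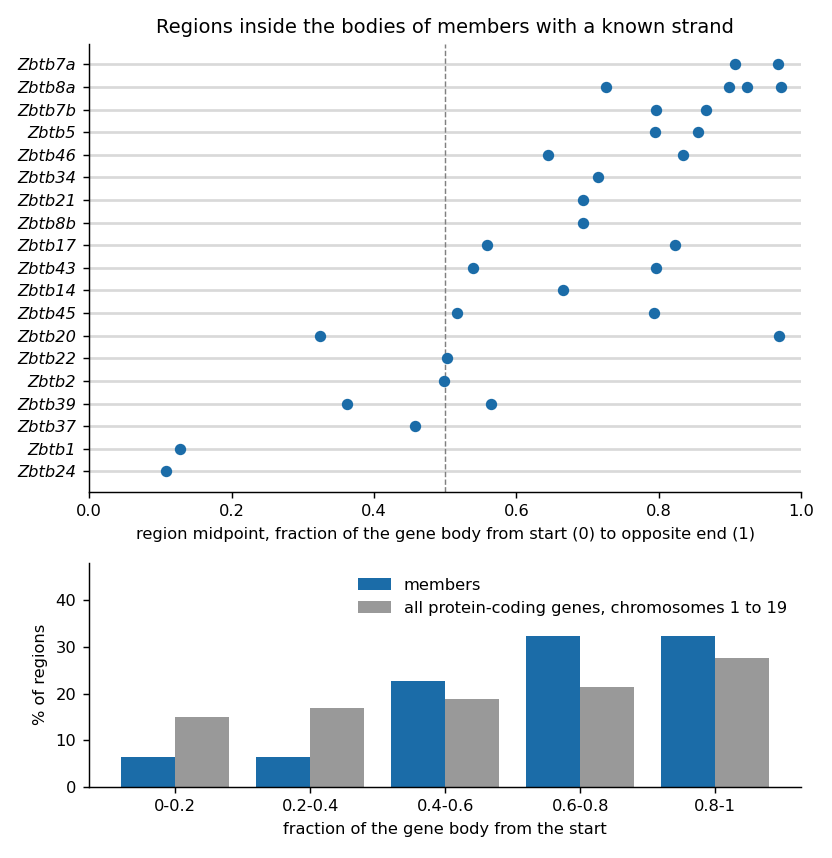
Above, the midpoint of each region inside a member's body, as a fraction of the body from the start (0) to the opposite end (1), for 19 members with a known strand. Below, the percent of regions in each of 5 equal bins of the body for members (blue) and all protein-coding genes with a strand (grey). The last 2 bins held 32.3% of the members' regions each, against 21.5% and 27.7%, and the first held 6.45% against 14.9%.

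At the end opposite the start, within 2000 bp, regions were found at 9 of 33 members (27.3%), beside 13.7% of all genes. These were Zbtb2, Zbtb7a, Zbtb7b, Zbtb8a, Zbtb17, Zbtb22, Zbtb24, Zbtb39 and Zbtb45. In 6 members (18.2% of 33, beside 11.2% of all genes) the start had no region within 2000 bp, and no member had a region at its start alone, beside 6.05% of all genes. With genes shorter than 8000 bp left out, 6 of 24 members (25%) had a region at the opposite end against 14.8% of all such genes, and 1 of 24 (4.17%) at the start against 8.47%. Of the members without a strand here, Zbtb48 and Zbtb7c also had a region within 2000 bp of an end, which made 11 of 38 members (28.9%) beside 19.2% of all genes. The count moved with the distance, to 7 members (18.4% beside 10.7%) within 1000 bp and 22 (57.9% beside 36.7%) within 5000 bp. The BTB-Kelch genes (Klhl), which share the BTB domain, had a region at the opposite end in 7 of 27 (25.9%), close to the members' 27.3%. At the start it was 5 of 27 Klhl genes (18.5%).

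Genes of like domains were counted in the same way. Of all genes 47.1% carried a region, as did 28.3% of those under 20 kb. BTB zinc finger genes with other symbols, of a median length of 18.9 kb, carried regions in 3 of 8 (37.5%). They were Bcl6, the repressor of germinal centre B cells (2 regions, highest fold 5.43, 21 against 4 tags), Hic2 (6.15-fold, 38 against 7) and Mynn (4.58-fold, 28 against 7), while Bcl6b, Hic1, Patz1, Gzf1 and Zfp131 had none. Klhl genes, which have Kelch repeats in place of fingers and serve cullin 3, carried regions in 20 of 33 (60.6%), with a median fold of 4.61. The highest were at Klhl32 (9.35-fold, 44 against 5 tags), Klhl8 (27 oil tags against a value set by the genome mean, 9.03-fold) and Klhl2 (8.56-fold, 112 against 16). The Klhl share was close to that of the members. It was also close to the 63% of all genes of 20 to 100 kb, where the Klhl median length of 25.8 kb falls. In Klhl genes 27 of 44 regions (61.4%) were past the midpoint, nearer to all genes than to the members although their share at the opposite end was like that of the members, and in Zfp zinc finger genes, added after the members' positions were seen, 142 of 241 (58.9%).

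Partners of BTB proteins in repression carried regions in 7 of 11 autosomal genes (63.6%), of a median length of 51.8 kb, close to the 63% of all genes of 20 to 100 kb. The corepressor gene Ncor1 had most regions of these (7 regions, highest fold 5.36, 33 against 7 tags). Histone deacetylase genes with regions were Hdac4 (32 oil tags against a value set by the genome mean, 10.65-fold), Hdac7 (6.35-fold, 141 against 28), Hdac2 (4.58-fold, 49 against 13) and Hdac1 (4.23-fold, 87 against 26). Gps2 (5.12-fold, 51 against 12 tags) and Sin3a (4.51-fold, 210 against 60) had 1 each. None was found in Cul3, Hdac3, Hdac5 or Tbl1xr1, and Bcor, which is not on chromosomes 1 to 19, was left out.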

How the data were processed

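Libraries of MBD2-captured and unbound DNA were made from satellite cells after oil or tamoxifen, 1 library per group. Per the submitters' processing notes, Trim Galore, HISAT2 and mm10 were used. The authors called regions with MACS2 2.2.6, oil against tamoxifen, keeping 1 tag per position, per the file headers. The deposited pileup is a signal, the oil tags over the summit, and the deposited fold enrichment is a ratio. The headings of the authors' −log10 p and −log10 q columns were lost, and the columns were read by their place. These p-values and q-values compare 2 libraries, not conditions.

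Tamoxifen tags were computed from pileup and fold with Python 3.11.15 and pandas 2.3.3. They came out whole within 0.02 tags in 97.5% of regions. In the other 980 the genome mean of 2.10 scaled tags set the value. This step and the overlaps were tested on simulated data. Genes came from the RefSeq table of GRCm38.p6, and strand from its promoter windows. Overlap of 1 bp counted. Every member is named, with its strongest region and, here, all others. Members, lists and rules were chosen with earlier results of these data known. Positions within 2000 bp of a gene's start or opposite end overlap in short genes. No genome or protein sequence was used here, so exons and zinc fingers were not examined. Alternatives changed the q limit, the flank, the overlap rule, the scaling and the background. A gene planned for the list of partners is not reported here.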

Additional observations from a re-analysis of the deposited data

How the results depend on the processing

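The number of members with a region was 24 as reported and 20 to 28 under stricter q limits, other flanks, the midpoint rule, unscaled tags, joined loci and without Zbtb8os, and the number of regions was 47 to 70 against 62, all within 1.5 times. The share of all genes with a region was 46.4% at a q limit of 1e-06, 43.2% at 1e-10, 43.6% with no flank, 52.7% with 5000 bp and 39.4% with lncRNA genes included, against 47.1%. The members' median fold was 3.70 with unscaled tamoxifen tags and 5.31 over the highest fold of each gene, against 4.35. Members with a region near an end were 7 within 1000 bp (10.7% of all genes) and 22 within 5000 bp (36.7%), against 11 (19.2%). The share of regions past the midpoint of the gene was 72.7% at a q limit of 1e-10 (58.1% over all genes), and 77.8% both with unscaled tags and without Zbtb8a. With unscaled tags 6 of the 62 regions no longer reached the weakest p-value of the list, which left Zbtb14 and Zbtb22 with none. That limit is on p and is not the caller's limit on q. No paired analysis was possible because each group has 1 library. Regions with few tags, such as that of Zbtb10 with 3 tamoxifen tags, have wide limits.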
